A study of Brassica juncea with 2 samples.

Results

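Gibberellins, brassinosteroids and cytokinins are growth hormones, and the transcripts that make, inactivate, sense and answer them are described here in seedlings of the Indian mustard Brassica juncea. The members are the unigenes (assembled transcripts) whose annotation in the deposited expression table names one of these hormones, one of their enzymes or receptors, a GRAS family transcription factor or a response regulator, and 126 of the 47513 unigenes fit this rule. Of the 126, 46 fall under gibberellin, 28 under brassinosteroid and 52 under cytokinin. All but 1 were found by their annotation words. The exception, Bju_CS52_NR_12034, has no annotation in that table and was added by its identifier. The supplementary tables of the study tie it to a gibberellin-responsive GAST1 homolog and list it among unigenes picked for their change, so its values are a description only. A further 12 unigenes annotated as pseudo-response regulators, which belong to the circadian clock, were left out.

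The study compared salt-stressed seedlings with unstressed ones by RNA sequencing of poly(A)-selected RNA. SS was a library of cultivar CS52 seedlings, 2 weeks old and grown in aerated hydroponics, that were given 200 mM salt for 24 h. CTRL was a library of CS52 seedlings of the same age and culture that were kept in water and collected at the same time. Each condition was 1 library made from a pool of randomly chosen seedlings, so there is no biological replicate. No difference between SS and CTRL could be tested against variation between plants, and no p-value is given.

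The libraries carried 73982305 reads on unigenes in SS and 77863618 in CTRL. Levels are in RPKM, reads scaled to the length of the unigene and to the number of high-quality reads of the library. The ratio of SS to CTRL is given as the log2 of (RPKM + 0.1) in SS over the same in CTRL, for unigenes that reached 1 RPKM in SS or in CTRL, and a 2-fold difference serves as a descriptive mark, not as a test. Intervals are 95% exact intervals from the read counts (Clopper-Pearson for ratios of SS to CTRL), and they cover counting error only, because amplified reads and read mates are not independent molecules and variation between plants was not sampled. The labelled tissue was seedlings, and the 44 unigenes with green-tissue annotation words summed to 43886 RPKM in SS and 46110 RPKM in CTRL, against 183 RPKM in SS and 170 RPKM in CTRL for the 32 with root words. In such pooled bulk tissue, fewer cells that express a gene and less RNA per cell cannot be told apart.

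Gibberellins promote elongation and germination. They are completed by gibberellin 20-oxidases and 3-oxidases and inactivated by 2-oxidases, and they act by removing DELLA proteins, growth repressors of the GRAS family. Brassinosteroids are perceived at the cell surface by the kinase BRI1, and phosphatases of the BSU1 family pass the signal on to BZR1-type transcription factors. Cytokinins drive cell division and greening through histidine kinases and phosphotransfer proteins that activate type-B response regulators, which in turn switch on the type-A regulators that dampen the response, while cytokinin oxidases degrade the hormone.

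Most of these unigenes were at nearly the same level in SS as in CTRL. Of the 126 members, 111 reached 1 RPKM in either library and 15 did not. Among the 111, 2 were at least 2-fold higher in SS, which is 1.80%, against a background of 1.91% of all 43250 unigenes that reached the minimum. At least 2-fold lower were 4 members, which is 3.60%, against 4.21% of all unigenes. Among the 26722 annotated unigenes at this level the shares were 1.26% higher and 4.24% lower. Of the 4 lower members, Bju_CS52_R_4726 and Bju_CS52_R_6986 reached 1 RPKM in CTRL only. They thus passed the minimum through the library where they were higher, as could any unigene in the background. Since NR_12034 entered with its change known, the higher count rests on 1 of 110 members when only the annotation words are used.

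The median log2 ratio of the members was −0.11, beside −0.06 over all unigenes and −0.10 over the annotated ones. The members ranged between −1.41 and 1.66. In SS, 40 members were above CTRL and 71 were below it, and the share below, 64.0%, compares with 57.4% of all and 62.2% of annotated unigenes. Within 0.5 of zero on the log2 scale were 84 members, or 75.7%, against 77.1% of all unigenes. Levels were mostly low. Of the 126 members, 25 reached 10 RPKM in either library and 1 reached 100 RPKM.

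**Figure D1:**
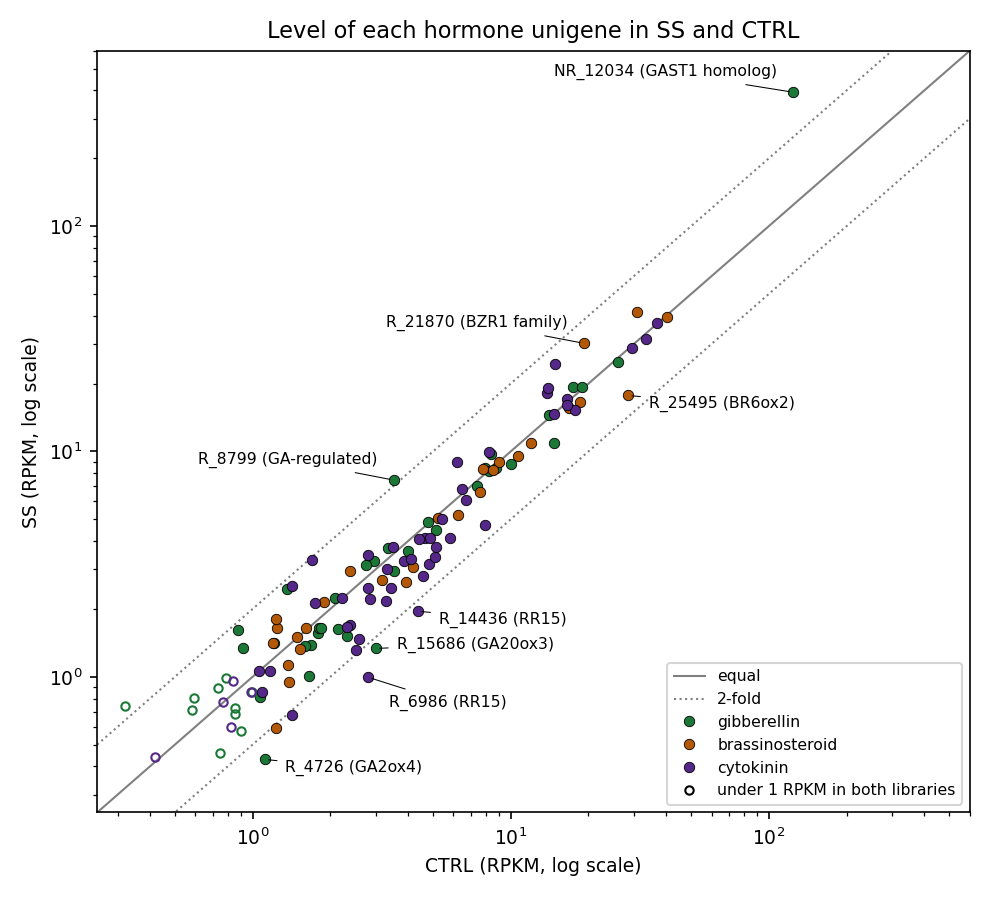
Level of each of the 126 unigenes in SS (vertical axis, RPKM, log scale) against CTRL (horizontal axis, RPKM, log scale), coloured by hormone, with open circles for the 15 unigenes under 1 RPKM in both libraries. Most points lie between the dotted 2-fold lines, and NR_12034, at 392 RPKM in SS and 125 RPKM in CTRL, stands far above the rest in level.

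By hormone, the medians were −0.05 for the 36 gibberellin unigenes that reached the minimum, −0.07 for the 28 brassinosteroid unigenes and −0.13 for the 47 cytokinin unigenes. The 2 unigenes past 2-fold higher were both gibberellin-regulated proteins. Those past 2-fold lower were a gibberellin 20-oxidase, a gibberellin 2-oxidase and a pair annotated as response regulator 15. With 0.1 RPKM added, no brassinosteroid unigene was past 2-fold in either direction, beside 1.91% higher and 4.21% lower of all unigenes. Without it, Bju_CS52_R_6 was past 2-fold lower, at a ratio of 0.483 from 16 reads in SS and 35 in CTRL. With size factors in place of read totals, which moved the median of all unigenes to 0.00, the gibberellin median became 0.02 and the other medians stayed below 0.

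**Figure D2:**
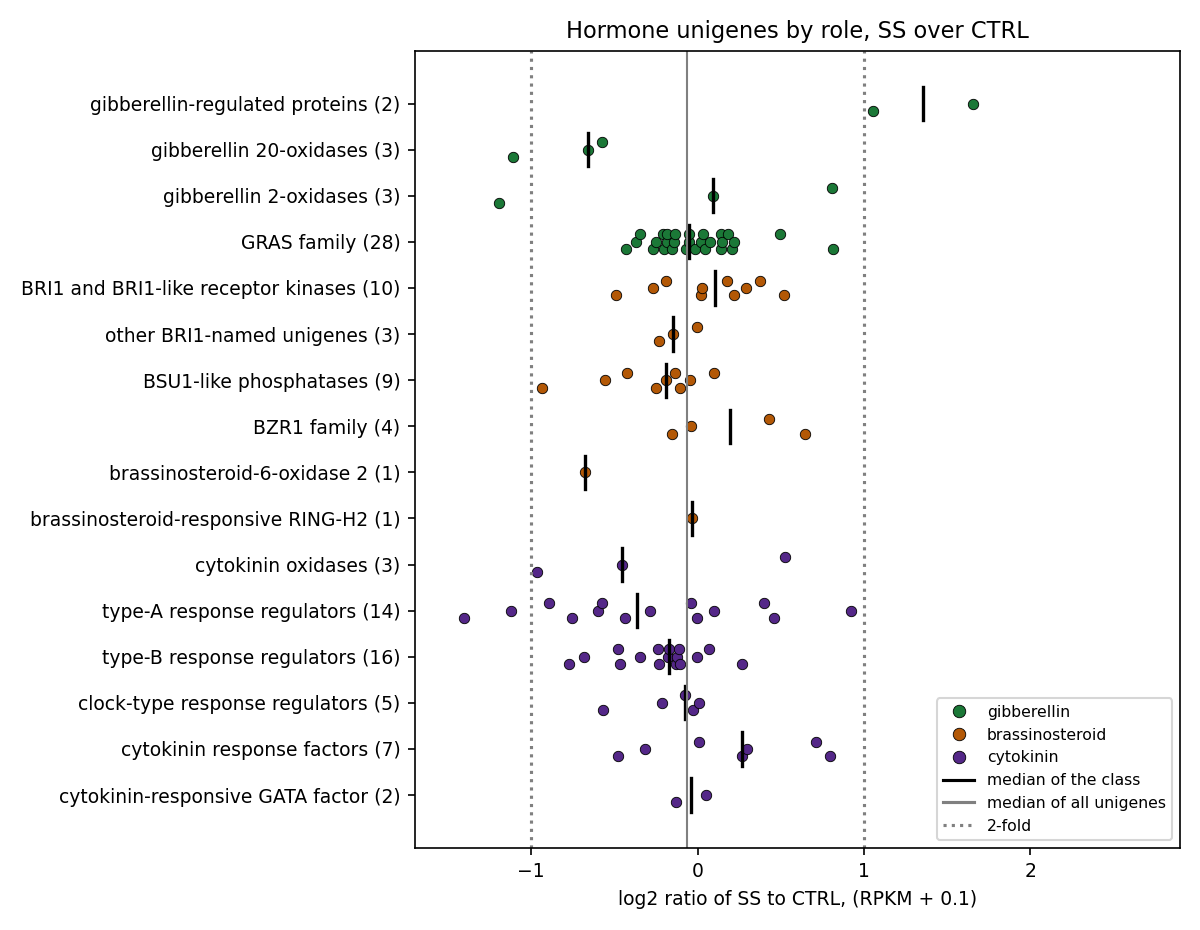
Log2 ratio of SS to CTRL for the 111 unigenes that reached 1 RPKM, 1 point per unigene, by role, with the number of unigenes in brackets. Black bars mark the median of a class, the grey line the median of all unigenes (−0.06) and dotted lines 2-fold; 2 gibberellin-regulated unigenes lie right of the right dotted line, and 4 unigenes of the oxidases and type-A response regulators lie left of the left one.

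The gibberellin-regulated proteins of the GAST1 and GASA type are small, cysteine-rich, mostly secreted peptides whose transcripts respond to gibberellin. Bju_CS52_NR_12034, of 609 bp, had 21452 reads (392 RPKM) in SS, against 7188 reads (125 RPKM) in CTRL. The log2 ratio was 1.66, and the ratio of RPKM was 3.15 (interval 3.07 to 3.24). It was the most abundant member in both libraries, and it was the largest single part of the summed gibberellin level of 596 RPKM in SS and 330 RPKM in CTRL. Bju_CS52_R_8799, annotated as a gibberellin-regulated family protein, had 338 reads (7.46 RPKM) in SS and 169 reads (3.53 RPKM) in CTRL, a log2 ratio of 1.06 and a ratio of 2.11 (interval 1.75 to 2.56). Its interval reached below 2-fold. It is also among the unigenes that the study listed for their change.

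A pair of abundant unigenes of the same type bears no annotation in the deposited table and is known only from the supplementary tables, where they are listed for their level in CTRL and not for a change. Bju_CS52_NR_14130, GAST1-like, stood at 237 RPKM in SS and 185 RPKM in CTRL, a log2 ratio of 0.35. Bju_CS52_NR_16508, with a GASA domain, stood at 127 RPKM in SS and 144 RPKM in CTRL, a log2 ratio of −0.18. These GASA-type transcripts thus lay on both sides of CTRL.

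Gibberellin 20-oxidases carry out the late oxidations that lead to active gibberellins. Bju_CS52_R_15686, gibberellin 20-oxidase 3, had 100 reads (1.34 RPKM) in SS, against 237 reads (2.998 RPKM) in CTRL, a log2 ratio of −1.11 and a ratio of 0.446 (interval 0.349 to 0.565). A second unigene of the same annotation, Bju_CS52_R_8189, had 44 reads (1.01 RPKM) in SS and 76 reads (1.66 RPKM) in CTRL, a log2 ratio of −0.66. Gibberellin 20-oxidase 4 (Bju_CS52_R_11602) had 84 reads (1.52 RPKM) in SS and 135 reads (2.32 RPKM) in CTRL, a log2 ratio of −0.57 and a ratio of 0.657 (interval 0.494 to 0.869). All 3 that reached the minimum were therefore lower in SS, of which 1 was past 2-fold. Gibberellin 20-oxidase 2 (Bju_CS52_R_5874) stayed under the minimum, with 37 reads (0.991 RPKM) in SS and 31 reads (0.786 RPKM) in CTRL. Summed over the 4 unigenes, the level was 4.86 RPKM in SS and 7.76 RPKM in CTRL, and the ratio from the summed reads was 0.584 (interval 0.501 to 0.680).

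Gibberellin 2-oxidases inactivate gibberellins, and the 3 unigenes went different ways. Gibberellin 2-oxidase 4 (Bju_CS52_R_4726, 389 bp) had 15 reads (0.430 RPKM) in SS and 41 reads (1.11 RPKM) in CTRL, a log2 ratio of −1.19 with a wide interval of the ratio, 0.199 to 0.713. Gibberellin 2-oxidase 7 (Bju_CS52_R_15438), which in Arabidopsis acts on gibberellin precursors, had 180 reads (2.45 RPKM) in SS and 105 reads (1.35 RPKM) in CTRL, a log2 ratio of 0.81 and a ratio of 1.81 (interval 1.42 to 2.33). The unigene annotated only as gibberellin 2-oxidase (Bju_CS52_R_20399) had 232 reads (2.23 RPKM) in SS and 229 reads (2.09 RPKM) in CTRL, a log2 ratio of 0.09. All 7 gibberellin oxidase unigenes were at a low level, none above the 2.998 RPKM of R_15686 in CTRL.

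GRAS proteins include the DELLA repressors, but no member's annotation named DELLA, so the family is given as a whole. Of its 37 unigenes, 28 reached the minimum, 12 of them above CTRL and 16 below it, with a median of −0.05 and a range of −0.43 to 0.81. Below CTRL were 57.1%, against 57.4% of all and 62.2% of annotated unigenes. None was past 2-fold, beside 1.91% higher and 4.21% lower of all unigenes. The sign of the GRAS median depended on the scaling, being 0.01 with size factors and 0.03 with the trend over unigene length removed. The summed GRAS level was 187 RPKM in SS and 190 RPKM in CTRL, and the ratio from the summed reads was 0.991 (interval 0.975 to 1.01). The most abundant unigene, Bju_CS52_R_28142, had 4922 reads (25.1 RPKM) in SS and 5392 reads (26.0 RPKM) in CTRL. The lowest ratio belonged to Bju_CS52_R_26831, with 1832 reads (10.9 RPKM) in SS and 2611 reads (14.7 RPKM) in CTRL, a log2 ratio of −0.43. The highest belonged to Bju_CS52_NR_12971, with 96 reads (1.62 RPKM) in SS and 55 reads (0.879 RPKM) in CTRL, a log2 ratio of 0.81. The 9 GRAS unigenes under the minimum included Bju_CS52_R_1799, which had 22 reads in SS and 10 reads in CTRL.

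Outside the members, 17 further unigenes carried annotation words of gibberellin synthesis or of GRAS-type scarecrow-like factors, and 16 reached the minimum. None was past 2-fold, and their median was −0.10. Over all unigenes 1.91% were past 2-fold higher and 4.21% lower, so the absence of calls among 16 unigenes says little. The 3 unigenes of GA requiring 3, the ent-kaurene oxidase of early gibberellin synthesis, had log2 ratios of −0.47, −0.29 and −0.25. Ent-kaurenoic acid hydroxylase 2, which acts at the next step, had 4.09 RPKM in SS and 3.90 RPKM in CTRL, a log2 ratio of 0.07.

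The brassinosteroid unigenes began at the receptor. The 10 unigenes of BRI1 and its relatives all reached the minimum, 7 were above CTRL and 3 below it, and their median was 0.10. The unigene named for the receptor itself, Bju_CS52_NR_6867 (brassinosteroid insensitive 1), had 112 reads (2.94 RPKM) in SS and 96 reads (2.39 RPKM) in CTRL, a log2 ratio of 0.29 whose interval of the ratio, 0.930 to 1.64, included equality. The BRI1 like unigene Bju_CS52_R_5523 had 60 reads in SS and 48 in CTRL, a log2 ratio of 0.37. BRI1-like 3, a brassinosteroid receptor of Arabidopsis vascular tissue, had 128 reads in SS and 133 in CTRL on Bju_CS52_R_17471, and 145 reads in SS and 187 in CTRL on Bju_CS52_R_23458. For each of these 4 unigenes the counting interval of the ratio included equality, so no difference was detectable at this depth.

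BRI1-like 2, a receptor-like kinase of vascular tissue, was spread over 6 unigenes, 5 of which share the Brassica rapa match Bra024840. Their log2 ratios ran between −0.49 for Bju_CS52_R_5134, with 34 reads in SS and 52 in CTRL, and 0.52 for Bju_CS52_R_7389, with 75 reads in SS and 54 in CTRL. The best covered of them, Bju_CS52_R_23315, had 275 reads (2.15 RPKM) in SS and 255 reads (1.89 RPKM) in CTRL. Summed, the 6 had 719 reads in SS and 705 in CTRL, a ratio of 1.08 (interval 0.970 to 1.20).

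A further 3 unigenes bear the name of BRI1 in their annotation. BRI1 kinase inhibitor 1, which holds the receptor inactive, had 1046 reads (8.99 RPKM) in SS and 1107 reads (9.003 RPKM) in CTRL. AtBS1-interacting factor 1 is named for a partner of an activation-tagged suppressor of BRI1 mutants, and its pair of unigenes gave 862 reads in SS and 1017 in CTRL together, a ratio of 0.895 (interval 0.817 to 0.981).

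The BSU1-like phosphatases, which relay the signal from the receptor by inactivating a GSK3-type kinase, were mostly below CTRL. Of 9 unigenes, 8 were below CTRL and 1 above it. The share below, 88.9%, compares with 57.4% of all and 62.2% of annotated unigenes. They matched only Bra030724, Bra031626 and Bra034332 of B. rapa, so 9 is not a number of genes. The median of the 9 unigenes was −0.19, or −0.13 with size factors, and the range was −0.94 to 0.10. Their summed level was 58.1 RPKM in SS and 65.0 RPKM in CTRL, and the ratio from the summed reads was 0.900 (interval 0.875 to 0.924). The most abundant, Bju_CS52_R_23917 (BSU1-like 2), had 2088 reads (15.6 RPKM) in SS and 2375 reads (16.8 RPKM) in CTRL. The lowest ratio, −0.94, came from the short unigene Bju_CS52_R_6 (BSU1-like 2), which had 16 reads (0.592 RPKM) in SS and 35 reads (1.23 RPKM) in CTRL.

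BZR1-type factors carry the signal to brassinosteroid target genes, and this family has 4 unigenes. The 3 that share the B. rapa match Bra016508 were not alike. Bju_CS52_R_21870 had 3480 reads (30.2 RPKM) in SS and 2343 reads (19.2 RPKM) in CTRL, a log2 ratio of 0.65 and a ratio of 1.57 (interval 1.49 to 1.65). Bju_CS52_R_21593 had 4708 reads (41.6 RPKM) in SS and 3692 reads (30.9 RPKM) in CTRL, a log2 ratio of 0.43. Bju_CS52_R_22416 had 1987 reads (16.6 RPKM) in SS and 2341 reads (18.5 RPKM) in CTRL, a log2 ratio of −0.16. The counting intervals of these 3 ratios did not overlap. The fourth, Bju_CS52_R_22397 on another match, had 990 reads in SS and 1077 in CTRL. Summed over the family, the level was 96.7 RPKM in SS and 77.2 RPKM in CTRL.

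Brassinosteroid-6-oxidase 2, the cytochrome P450 that completes brassinolide in Arabidopsis, gave the lowest brassinosteroid ratio after that of the sparsely covered R_6. Bju_CS52_R_25495 had 2675 reads (17.7 RPKM) in SS and 4532 reads (28.4 RPKM) in CTRL, a log2 ratio of −0.68 and a ratio of 0.623 (interval 0.594 to 0.654). The brassinosteroid-responsive RING-H2 protein, a ubiquitin ligase-type factor (Bju_CS52_R_14742), had 2741 reads (39.4 RPKM) in SS and 2959 reads (40.2 RPKM) in CTRL, a log2 ratio of −0.03. Over all 28 unigenes the summed brassinosteroid level was 249.6 RPKM in SS and 248.9 RPKM in CTRL.

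Of 73 further unigenes with words of sterols, steroids or brassinosteroid signalling, 72 reached the minimum and none was past 2-fold. Over all unigenes the shares past 2-fold were 1.91% higher and 4.21% lower. The median of the 72 was −0.10. The list is not clean, since the word sterol also caught oxysterol binding protein-related unigenes and a phospholipid sterol acyl transferase. Their annotations name no step of brassinosteroid synthesis or signalling, so the median is not that of the pathway alone. DWARF1, a sterol reductase of brassinosteroid synthesis, had 88.8 RPKM in SS and 99.6 RPKM in CTRL. Sterol methyltransferase 1 had 37.5 RPKM in SS and 58.3 RPKM in CTRL, a log2 ratio of −0.64. The highest ratio of that list, 0.85, belonged to BES1/BZR1 homolog 2 (Bju_CS52_R_7196), with 7.96 RPKM in SS and 4.38 RPKM in CTRL.

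The cytokinin oxidases, which degrade cytokinins, were split. Cytokinin oxidase 7 (Bju_CS52_R_26366), the cytosolic form of Arabidopsis, had 1453 reads (8.96 RPKM) in SS and 1060 reads (6.19 RPKM) in CTRL, a log2 ratio of 0.53 and a ratio of 1.45 (interval 1.34 to 1.57). Cytokinin oxidase 4 (Bju_CS52_R_27507) had 123 reads (0.678 RPKM) in SS and 272 reads (1.42 RPKM) in CTRL. Its log2 ratio was −0.97 and its ratio 0.478 (interval 0.383 to 0.593). Cytokinin oxidase 5 (Bju_CS52_R_27669) had 457 reads (2.47 RPKM) in SS and 668 reads (3.42 RPKM) in CTRL, a log2 ratio of −0.45. By the log2 ratio, which includes the RPKM added to each level, none of these was past 2-fold. Cytokinin oxidase 4 was past 2-fold lower without that addition, at its ratio of 0.478. The most abundant of these oxidases was the one above CTRL.

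The type-A response regulators, which cytokinin induces and which damp its signal, showed the widest spread of any cytokinin class. Of 14 unigenes, 4 were above CTRL and 10 below it, 2 of them past 2-fold lower, with a median of −0.36. Below CTRL were 71.4%, against 57.4% of all and 62.2% of annotated unigenes. Past 2-fold lower were 14.3%, against 4.21% of all and 4.24% of annotated unigenes. At a minimum of 5 RPKM, 5 unigenes were left and their median was −0.04. Response regulator 15 accounted for both unigenes past 2-fold lower. Bju_CS52_R_6986 had 40 reads (0.995 RPKM) in SS and 119 reads (2.80 RPKM) in CTRL, a log2 ratio of −1.41 and a ratio of 0.355 (interval 0.242 to 0.512). Bju_CS52_R_14436 had 133 reads (1.96 RPKM) in SS and 314 reads (4.37 RPKM) in CTRL, a log2 ratio of −1.12 and a ratio of 0.447 (interval 0.363 to 0.550). Together they had 173 reads in SS and 433 in CTRL, a ratio of 0.422 (interval 0.352 to 0.505).

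Several other type-A unigenes were lower by less. Response regulator 17 (Bju_CS52_R_8722) had 59 reads (1.31 RPKM) in SS and 120 reads (2.52 RPKM) in CTRL, a log2 ratio of −0.90. The pair of response regulator 6 had 516 reads in SS and 896 in CTRL, a ratio of 0.608 (interval 0.545 to 0.679). The pair of response regulator 7 had 525 reads in SS and 720 in CTRL, a ratio of 0.770. Response regulator 9 was uneven, since Bju_CS52_R_17339 had a log2 ratio of −0.60 while its other 2 unigenes were at 0.10 and 0.00.

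Response regulator 4, the most abundant type-A regulator, stood above CTRL in its summed reads, 5330 in SS and 4591 in CTRL, a ratio of 1.23 (interval 1.18 to 1.28). Bju_CS52_R_20042 had 1945 reads (19.2 RPKM) in SS and 1488 reads (13.9 RPKM) in CTRL, a log2 ratio of 0.46. Bju_CS52_R_19685 had 1806 reads (18.2 RPKM) in SS and 1444 reads (13.8 RPKM) in CTRL, a log2 ratio of 0.40. Bju_CS52_R_18658 had 1483 reads (16.1 RPKM) in SS and 1607 reads (16.5 RPKM) in CTRL, a log2 ratio of −0.04, so 1 of its unigenes did not share the direction. The short Bju_CS52_R_1399 had 96 reads (3.31 RPKM) in SS and 52 reads (1.70 RPKM) in CTRL, a log2 ratio of 0.92. Because response regulator 4 carried most of the reads, the summed type-A level was 83.0 RPKM in SS and 85.5 RPKM in CTRL although most type-A unigenes were below CTRL.

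**Figure D3:**
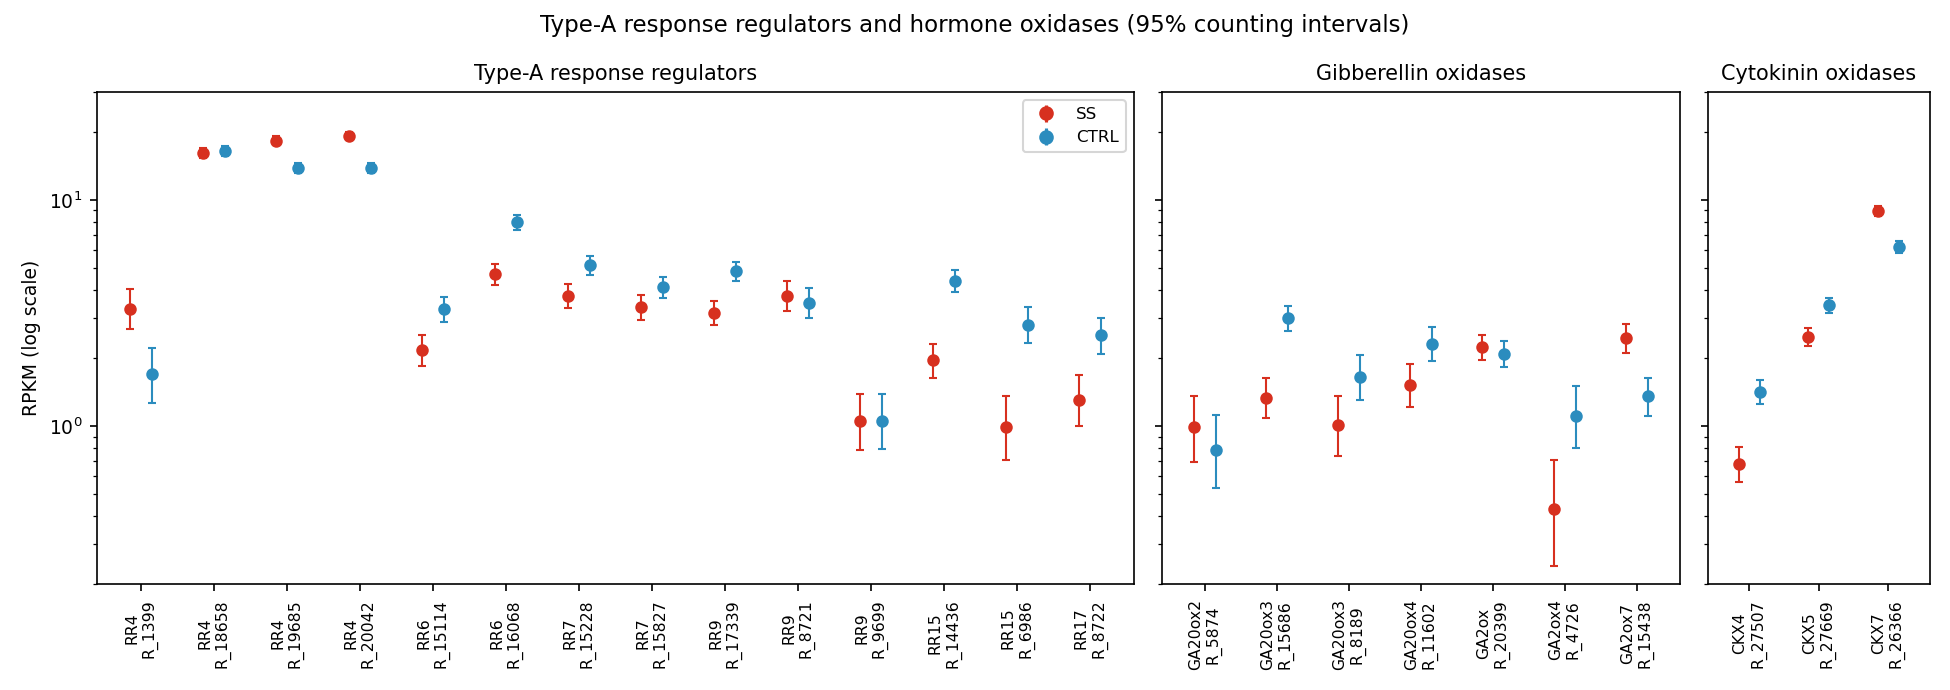
Level (vertical axis, RPKM, log scale) of each type-A response regulator, gibberellin oxidase and cytokinin oxidase unigene in SS (red, left of each pair) and CTRL (blue, right), with 95% Poisson intervals from the read counts. The SS and CTRL intervals are apart for many of these unigenes and overlap for others. Among those apart are both response regulator 15 unigenes, gibberellin 20-oxidase 3 R_15686 and every cytokinin oxidase. Cytokinin oxidase 7 is the only cytokinin oxidase higher in SS.

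Type-B response regulators are the DNA-binding activators of the cytokinin response. Of 20 unigenes, 16 reached the minimum, 2 of these were above CTRL and 14 below it. None was past 2-fold, beside 1.91% higher and 4.21% lower of all unigenes. The share below, 87.5%, compares with 57.4% of all and 62.2% of annotated unigenes. Of the 14 below, 7 were response regulator 1 unigenes on only Bra001643 and Bra022183 of B. rapa, so 14 is not a number of genes. The median was −0.17, beside −0.06 for all unigenes and −0.10 for annotated ones. With size factors, 17 unigenes reached the minimum and the median was −0.11, beside 0.00 for all unigenes. At a minimum of 5 RPKM, 4 unigenes were left and their median was −0.06. The summed level of the class was 65.8 RPKM in SS and 74.4 RPKM in CTRL. The lowest ratios were those of response regulator 10, whose unigenes Bju_CS52_R_17645 and Bju_CS52_R_10188 had log2 ratios of −0.77 and −0.69. Together they had 267 reads in SS and 477 in CTRL, a ratio of 0.591 (interval 0.507 to 0.688). The 8 unigenes of response regulator 1 had 3102 reads in SS and 3895 in CTRL, a ratio of 0.841 (interval 0.802 to 0.882). Response regulator 14 (Bju_CS52_R_24356), the most abundant of the class, had 14.6 RPKM in SS and 14.7 RPKM in CTRL.

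The words of the rule also caught 5 unigenes of clock type, 4 with a CCT motif and 1 annotated as PRR95, which are not known as cytokinin regulators. The 4 with a CCT motif were among the 25 members that reached 10 RPKM, for example Bju_CS52_R_22057 with 4339 reads (37.2 RPKM) in SS and 4563 reads (37.0 RPKM) in CTRL. PRR95 (Bju_CS52_NR_21406) had 566 reads (3.39 RPKM) in SS and 894 reads (5.07 RPKM) in CTRL, a log2 ratio of −0.57. Without these 5 unigenes the cytokinin median was −0.15 and no count past 2-fold changed.

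Cytokinin response factors are AP2/ERF transcription factors that act beside the type-B regulators. Of 8 unigenes, 7 reached the minimum, 5 were above CTRL and 2 below it, with a median of 0.27 and a range of −0.48 to 0.79. Above CTRL were 71.4%, against 42.6% of all and 37.8% of annotated unigenes. The 6 unigenes of factor 2 matched only Bra013730 and Bra019270 of B. rapa, so they are not separate genes. Cytokinin response factor 2 was led by Bju_CS52_R_15781, with 1839 reads (24.4 RPKM) in SS and 1182 reads (14.9 RPKM) in CTRL, a log2 ratio of 0.71 and a ratio of 1.64 (interval 1.53 to 1.77). The other unigenes of factor 2 lay between Bju_CS52_R_9254, with 79 reads in SS and 118 in CTRL (log2 ratio −0.48), and Bju_CS52_R_8852, with 115 reads in SS and 68 in CTRL (log2 ratio 0.79). Summed over the 6 unigenes of factor 2, there were 3070 reads in SS and 2291 in CTRL, a ratio of 1.42 (interval 1.34 to 1.49). The pair of cytokinin response factor 3 had 58 reads in SS and 74 in CTRL, and its interval of the ratio, 0.577 to 1.18, included equality. Cytokinin-responsive GATA factor 1, a greening regulator of Arabidopsis, had 3029 reads in SS and 3152 in CTRL over 2 unigenes, a ratio of 1.02 (interval 0.965 to 1.07).

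The remaining cytokinin list, 50 unigenes with words of synthesis, transport, perception and phosphotransfer, had 46 at the minimum. Their median was −0.14, and past 2-fold were 1 unigene above CTRL and 3 below it. These shares were 2.17% and 6.52%, against 1.91% and 4.21% of all unigenes and 1.26% and 4.24% of annotated ones. The list is not clean, since 18 of its unigenes bear the broad annotation of histidine kinase-, gyrase- and HSP90-like ATPases, which gave the higher call and 2 of the lower ones. A further 2 unigenes are annotated as ethylene sensors. The third lower call was histidine-containing phosphotransfer factor 5, which passes phosphate between receptor and response regulator, on Bju_CS52_R_872 with 31 reads (1.10 RPKM) in SS and 81 reads (2.72 RPKM) in CTRL, a log2 ratio of −1.23. The other unigenes of that factor, Bju_CS52_R_6335 and Bju_CS52_R_13838, had log2 ratios of −0.12 and −0.04. The best covered unigenes of the receptors histidine kinase 2 and histidine kinase 3 had 6.25 RPKM in SS and 6.62 RPKM in CTRL, and 7.501 RPKM in SS and 8.26 RPKM in CTRL. That of the CHASE domain containing histidine kinase, Bju_CS52_R_30188, lay on the other side, with 6.36 RPKM in SS and 5.94 RPKM in CTRL, a log2 ratio of 0.10. Isopentenyltransferase 9, which makes cytokinin by modifying tRNA, had 6.63 RPKM in SS and 8.78 RPKM in CTRL, a log2 ratio of −0.40.

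B. juncea is an allotetraploid that carries an A and a B subgenome, so several unigenes can match 1 gene of B. rapa. Of the members, 118 matched 63 B. rapa genes, and 30 matches held 2 or more members. In 25 of these matches at least 2 unigenes reached the minimum, and in 14 of the 25 they lay on both sides of CTRL. The median distance between the lowest and the highest log2 ratio of a match was 0.31, and the widest was 1.27, at Bra013730 (cytokinin response factor 2). Copies from the subgenomes, fragments of 1 transcript and reads shared between near-identical copies cannot be told apart here, so the number of unigenes is not a number of genes. The response regulator 10 and 6 pairs were the matches whose unigenes lay together farthest below CTRL, at −0.76 and −0.72 from their summed reads.

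**Figure D4:**
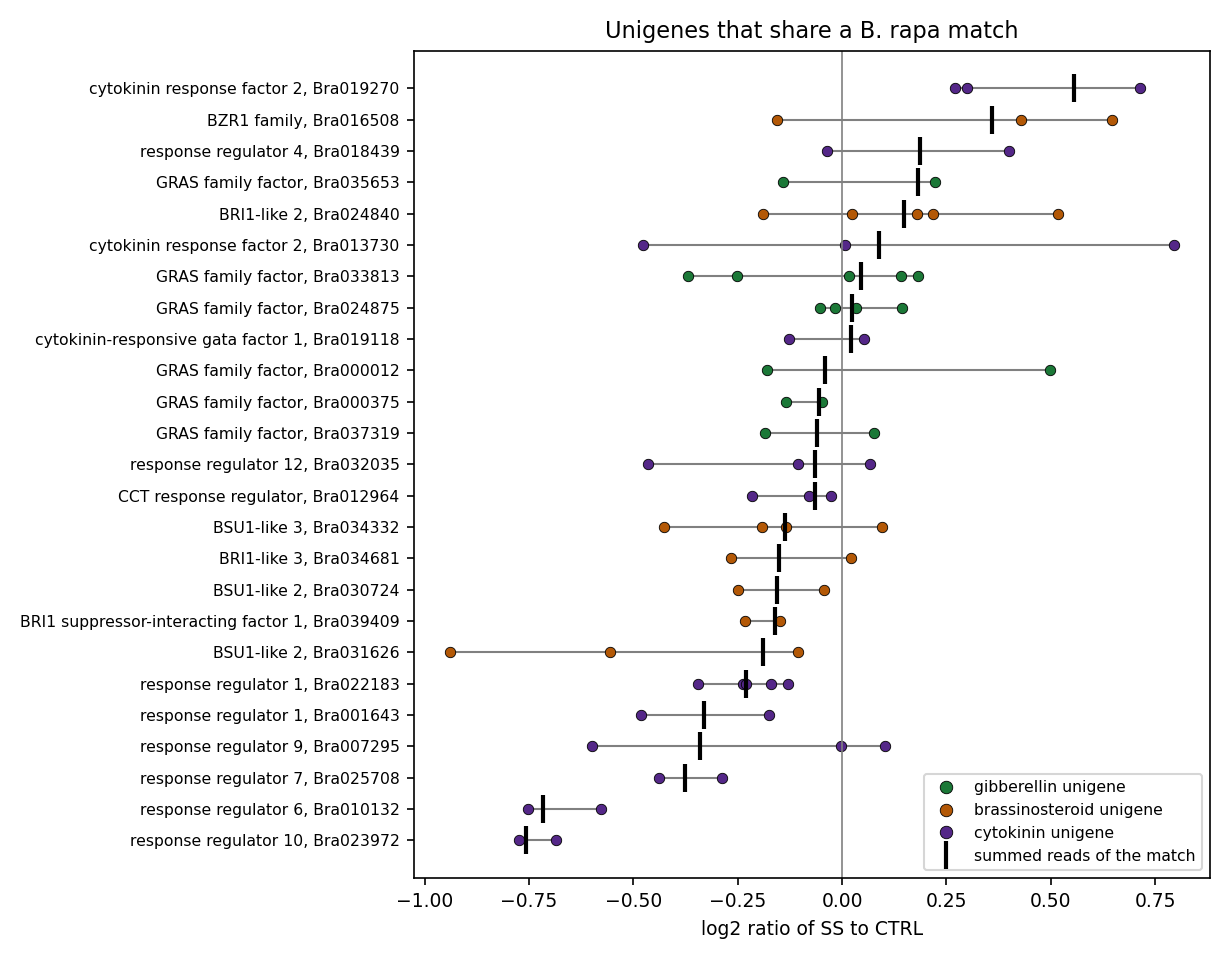
Log2 ratio of SS to CTRL for the unigenes of the 25 B. rapa matches with at least 2 unigenes at 1 RPKM, 1 point per unigene, coloured by hormone, with a black bar for the log2 ratio of the summed reads. In 14 of the 25 rows the points lie on both sides of zero; the widest row, Bra013730, spans 1.27.

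Near the 2-fold mark, cytokinin oxidase 4 at −0.97, Bju_CS52_R_6 at −0.94 and response regulator 4 Bju_CS52_R_1399 at 0.92 lay just inside it, and R_8799 at 1.06 and R_4726, R_14436 and R_15686 at −1.19, −1.12 and −1.11 just outside. Only R_6986 at −1.41 and NR_12034 at 1.66 were farther from it. Of these members past 2-fold, R_4726 rested on 15 reads in SS and 41 in CTRL, and its interval reached nearest to equality among the 4 lower ones. All 126 members had reads in both libraries, between 13 and 21452 in SS and between 10 and 7217 in CTRL.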

How the data were processed

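High-quality reads of each library had been mapped by the authors with BOWTIE2 to unigenes assembled with Trinity and clustered with CD-HIT-EST 4.6.1; for the other tools the version is not given in the sources used here. The deposited table gives a column named RPKM for each library. In CTRL the deposited RPKM values are reads scaled to the length of each unigene and to the high-quality reads of the library. In SS the deposited values are a signal that is reads times 1 constant, as if every unigene were 849 bp long. All 47505 listed SS values came out within 0.01 read of whole reads. Unigene lengths were recovered from the whole reads behind the CTRL values and the rise of length with unigene number, and SS was rescaled with them; all 126 members had a single length. With 1 library per condition, differences in these reads could not be tested against variation between plants. The study itself called changes with DESeq on the same libraries.

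Ratios used log2(RPKM + 0.1), which understates differences of unigenes with low values, and a minimum of 1 RPKM in either library. Unigenes named were those past 2-fold, NR_12034, the most abundant, highest and lowest of each role group, and all oxidases and BRI1 unigenes; others were chosen after their values were seen. Members and lists were chosen with earlier results of these data known. The planned design assumed RPKM in both columns. There were 0 further columns with values per sample. Calculations used Python 3.11.15, NumPy 2.4.6, pandas 2.3.3 and SciPy 1.17.1, were tested on simulated data, and the alternatives tried are given in the closing section. Sequences were not used here.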

Additional observations from a re-analysis of the deposited data

How the results depend on the processing

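With a pseudocount of 1 RPKM, 1 member was at least 2-fold higher and 0 lower, as R_8799 came to 0.90 and R_6986 to −0.93; a minimum of 5 RPKM also left 0 lower. With members found by the annotation words only, 1 was higher. With the SS values as deposited, before rescaling for length, 22 members were higher and 17 lower and the median was 0.27, because ratios then followed unigene length; the cause lies in that alternative's own construction. In the other alternatives (pseudocount 0.01, no minimum, size factors, total of reads on unigenes, trend over length removed, without the clock-type unigenes) the counts stayed within 1.5 times of those reported and the median between −0.12 and −0.04. The GRAS and gibberellin medians changed sign with size factors and with the length trend removed, and a minimum of 5 RPKM moved the gibberellin median to 0.01, the type-A median to −0.04, the type-B median to −0.06 and the cytokinin oxidase median, with 1 unigene left, to 0.53. The gibberellin 20-oxidase median was −0.40 with a pseudocount of 1 RPKM and −0.56 with size factors. Changes near the mark that appeared with a pseudocount of 0.01 were −1.04 for R_6 and −1.05 for cytokinin oxidase 4. The share of higher among all calls was 31.3% over all unigenes with the settings used, 38.5% with a pseudocount of 1 RPKM or with size factors, 40.0% with the trend removed and 43.5% as deposited. No paired analysis was possible because each condition had 1 library, and no library could be left out.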

Other observations

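Among unigenes tied to these hormones only by the supplementary tables of the study, 2 were listed there for their change, so their values are a description. Bju_CS52_NR_14456, tied to cytokinin-independent 1, a histidine kinase, had 139 reads (2.05 RPKM) in SS and 55 reads (0.766 RPKM) in CTRL, a log2 ratio of 1.31. Bju_CS52_R_24182, an alpha/beta hydrolase tied to BRI1, had 453 reads (3.33 RPKM) in SS and 1362 reads (9.47 RPKM) in CTRL, a log2 ratio of −1.48.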
